A study of Mus musculus with 24 samples.

Results

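Long intergenic noncoding RNAs (lincRNAs) are transcripts that lie between protein-coding genes. The array used here carries 16251 probes of 60 bases whose annotation contains the word lincRNA, among 55681 distinct probes for genes, and 4627 of the 16251 are described here: those marked by the scanner software as well above background in every one of the 4 arrays of a strain-by-diet group, for 1 group or more. They were chosen by a measured value, the background mark, and of all probes for genes 28162 pass the same mark. RNA came from livers of male mice. They belonged to 3 inbred strains, A/J, C3H/HeJ and, derived from wild mice, WSB/EiJ, with 4 arrays in each of 6 groups (24 arrays on 3 slides of 8). From 8 weeks of age the mice received for 12 weeks either an iron-supplemented, amino acid-defined diet without choline and folic acid and with 0.17% methionine, or a matched diet. The matched diet held choline bitartrate at 0.3%, folic acid at 2 mg/kg and methionine at 0.4%, and all mice were 20 weeks old at collection. These are called the deficient and the control diet, and the iron supplement is common to both. The series compares the strains for how strongly the liver responds to this diet. The samples are numbered within a group, but the labels do not say whether every array holds RNA of a different mouse. The p-values therefore rest on the spread among arrays, which may be technical.

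Choline, methionine and folate supply the methyl groups of S-adenosylmethionine, and choline is also needed to make phosphatidylcholine for lipoprotein export, so a lack of them is a classic way to bring about fatty liver in rodents. Most lincRNAs on such arrays were designed from chromatin maps and transcript collections and have no known function, whereas a few are well known. H19 is an imprinted RNA of fetal liver that is low in the adult organ, Neat1 is the scaffold of nuclear paraspeckles, and Malat1 (called NEAT2 on the array) is an abundant RNA of nuclear speckles. A probe here is named by its array ID, by the region it was designed for (chromosome, start, end and strand, F or R, in mouse build NCBI37, mm9) and by the nearest probe of a named gene.

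The following are the sequences of 8 probes described below: 3 named RNAs, 3 rises and 2 of the large falls, as the array files give them, in lower case with the motif AATAAA, the polyadenylation signal that marks the end of many messenger RNAs, in capitals. They are shown because the values below are values of these 60 bases, not of whole transcripts.
H19, A_30_P01021588, chr7:149761693-149761752, minus strand: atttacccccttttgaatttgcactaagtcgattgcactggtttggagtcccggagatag
NEAT1, A_30_P01020135, chr19:5842594-5842653, minus strand: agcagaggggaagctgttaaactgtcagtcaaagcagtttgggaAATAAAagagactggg
NRON, A_30_P01025636, chr2:33669043-33669102, plus strand: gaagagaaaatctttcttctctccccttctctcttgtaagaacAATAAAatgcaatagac
opposite strand of NEAT1, A_30_P01020769, chr19:5845052-5845111, plus strand: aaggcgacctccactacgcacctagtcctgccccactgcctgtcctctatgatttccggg
near Ifi207, A_30_P01030969, chr1:175662473-175662532, minus strand: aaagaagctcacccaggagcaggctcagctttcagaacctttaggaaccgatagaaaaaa
near Kifc1, A_30_P01028287, chr17:34018940-34018999, minus strand: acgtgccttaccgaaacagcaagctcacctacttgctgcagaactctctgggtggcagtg
near Hnrnpr, A_30_P01024647, chr4:135904500-135904559, minus strand: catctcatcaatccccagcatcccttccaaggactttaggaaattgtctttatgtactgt
near Zswim6, A_30_P01025700, chr13:108656891-108656950, plus strand: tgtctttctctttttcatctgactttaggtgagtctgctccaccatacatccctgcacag
The H19 and Neat1 probes lie on the strand of those genes, and A_30_P01020769 lies within the array's NEAT1 region (chr19:5842306-5845476) on the opposite strand, 2428 bp from the Neat1 gene probe. The motif AATAAA, searched for as these letters, stood in 4.13% of the 4627 lincRNA probes, in 3.92% of all 16251 and in 12.6% of the 39430 other probes of 60 bases, and its reverse complement in 3.11%, 3.03% and 4.03%. Median GC content was 45% in the lincRNA probes and 41.7% in the other probes. Neither the motif nor its complement was looked for outside the probe itself.

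The 4627 probes represent 2415 region names, of which 1284 have 1 such probe and 1131 have 2 to 10, with a median region length of 12012 bp. Region names overlap: on a shared strand they merge into 1960 stretches, and 156 of the 4591 probes placed on a chromosome overlap the probe before them, so neither probes nor regions are independent of each other. Of the 4627, 2670 were above background in all 6 groups and 547 in 1 group only. Of these, 98 passed through deficient A/J, 122 through deficient C3H/HeJ and 187 through deficient WSB/EiJ livers alone. Through control livers alone passed 15 in A/J, 22 in C3H/HeJ and 103 in WSB/EiJ. A probe that passed through 1 group had to be high there. Just outside the threshold stood 720 lincRNA probes above background on 3 arrays of their best group, with a median best-group level of -4.03, against -1.91 for the 4627 and -4.76 for the lowest of these. Levels are log2 processed signals minus the array's 75th percentile over all gene spots, so that 0 is a bright spot's level on each array, and levels of different probes are not compared as amounts. Between 21.9% and 35.0% of the lincRNA probes on the array were well above background on a given array. Hepatocyte markers were high on every array, with summed levels between 11.6 and 12.9, as the tissue label says. In whole liver, fewer cells of a type and less RNA per cell cannot be told apart.

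On the deficient diet more lincRNA probes were called lower than higher in each strain, relative to the 75th percentile of their array, but with arrays scaled on spike-in RNA most calls were higher (values below). The number called was lowest in A/J and highest in WSB/EiJ. In A/J livers limma called 229 of the 4627 at an adjusted p under 0.05 (62 higher, 167 lower), or 4.95%, where 7.44% of all 28161 probes tested were called. In C3H/HeJ livers 1686 were called (267 higher, 1419 lower), 36.4% against 42.5% of all probes. In WSB/EiJ livers 3165 were called (466 higher, 2699 lower), 68.4% against 70.7%. Lower calls made up 3.61%, 30.7% and 58.3% of the lincRNA probes in the order A/J, C3H/HeJ and WSB/EiJ, where 3.55%, 29% and 51.4% of all probes were lower. Higher calls made up 1.34%, 5.77% and 10.1%, where 3.9%, 13.5% and 19.3% of all probes were higher, so the share of rises was the smaller one in each strain.

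The median change of the lincRNA probes was -0.14 on the log2 scale in A/J, -0.33 in C3H/HeJ and -0.64 in WSB/EiJ, and that of the 23534 other probes tested was -0.07, -0.16 and -0.35. Among the 2670 above background in every group, the called numbers were 175, 1192 and 2043, or 6.55%, 44.6% and 76.5%. Of the 18425 others of that kind, 7.97%, 45% and 73% were called. The medians of the 2670 were -0.17, -0.38 and -0.71, against -0.09, -0.20 and -0.41 for these others. Within slides 1, 2 and 3 the median of the lincRNA probes was -0.25, -0.15 and -0.22 in A/J, -0.23, -0.32 and -0.49 in C3H/HeJ and -0.75, -0.48 and -0.66 in WSB/EiJ. In all 3 strains 40 of the 4627 lincRNA probes rose and 129 fell, and 1246 were called in none. Of the 23534 other probes, 720 rose and 624 fell in all 3, and 5530 were called in none. By region, 173, 1174 and 1887 of the 2415 held at least 1 called probe, and the other probes were not counted by region.

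**Figure D1:**
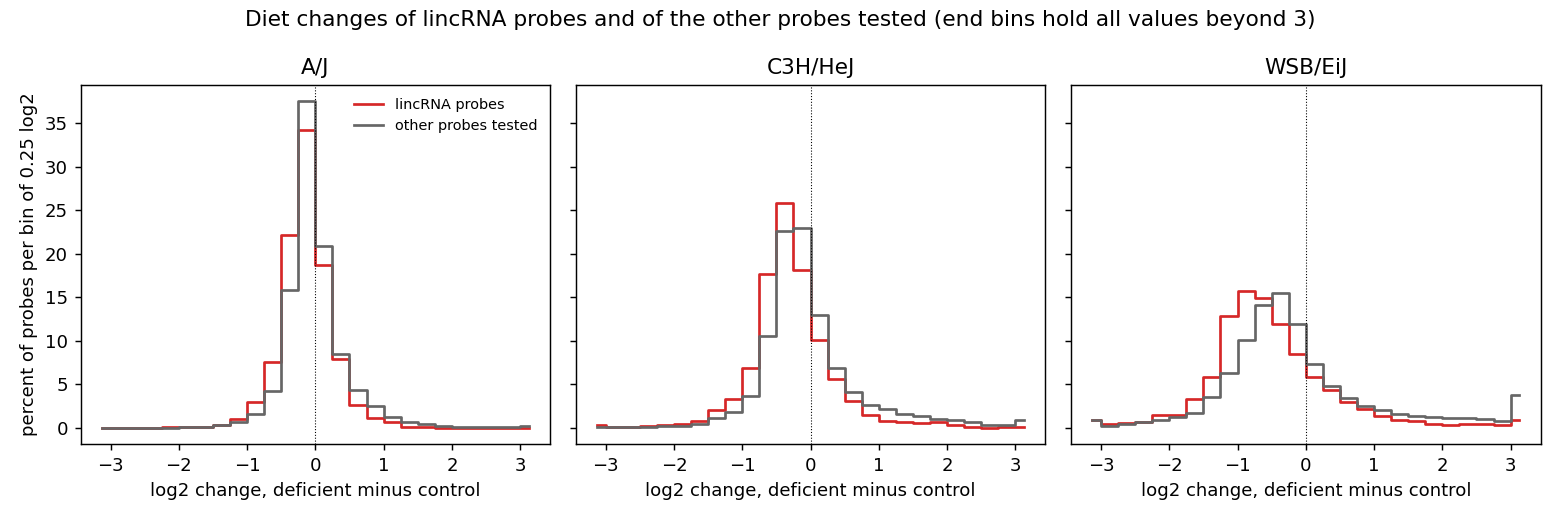
Distribution of the log2 change, deficient minus control diet, of the lincRNA probes and of the other tested probes in A/J, C3H/HeJ and WSB/EiJ, as the percent of probes per bin of 0.25 log2 (end bins hold all values beyond 3). With this scaling to the 75th percentile (spike-in scaling moves both medians above 0), the lincRNA curve lies left of that of the other probes in each strain, with medians of -0.14, -0.33 and -0.64 for the lincRNA probes.

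The direction of these counts depended on how arrays were scaled. Relative to the E1A spike-in probes, added RNA controls of known input, the 75th percentile of the gene spots rose from -2.80 to -2.44 in A/J, from -2.87 to -2.35 in C3H/HeJ and from -3.05 to -2.11 in WSB/EiJ. With arrays scaled on these spike-ins, 316 lincRNA probes were higher and 42 lower in A/J, 875 and 220 in C3H/HeJ and 1699 and 389 in WSB/EiJ, so that 88.3%, 79.9% and 81.4% of calls were higher, against 27.1%, 15.8% and 14.7% with the percentile. The median of all probes then stood at 0.28, 0.33 and 0.55, where with the percentile it stood at -0.08, -0.19 and -0.39. The median of the lincRNA probes minus that of all probes was -0.06, -0.15 and -0.25, which neither of these scalings can move since each subtracts 1 value per array. It was -0.09, -0.22 and -0.39 with quantile normalization, and -0.03, -0.07 and -0.12 with normexp background correction followed by quantile normalization. With no background filter on the other probes it was 0.08, 0.08 and 0.05, above that of all probes. A change below is therefore relative to the 75th percentile of its array, a scale on which the median of all probes was itself below 0. The share of the gene signal in the lincRNA probes was 4.07 ± 0.22% (SD, n = 4) on the control and 3.63 ± 0.21% on the deficient diet in A/J. It was 3.94 ± 0.050% and 3.86 ± 0.24% in C3H/HeJ, and 3.72 ± 0.17% and 3.43 ± 0.28% in WSB/EiJ.

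Among the probes designed for a known noncoding RNA, H19 rose most. Its 5 probes rose by 2.88 to 5.38 in C3H/HeJ and by 6.97 to 8.83 in WSB/EiJ livers, and none was called in A/J (-1.76 to -0.75). At A_30_P01021588 the WSB/EiJ control arrays read -5.55, -5.27, -6.32 and -3.72 and the deficient arrays 4.27, 3.79, 3.58 and 2.79. In C3H/HeJ the control arrays read -6.73, -5.38, -6.58 and -5.81 and the deficient arrays -0.52, -0.25, -0.63 and -1.58. The diet groups did not overlap in either strain, and the WSB/EiJ deficient arrays were the highest of all. In A/J the control arrays read -3.25, -6.63, -6.09 and 1.60 and the deficient arrays -5.30, -3.71, -3.88 and -5.66, so a single control array, replicate 4, stood above every other A/J array. The change was 8.83 ± 1.13 (SE) in WSB/EiJ (adjusted p = 1.06e-06), 5.38 ± 1.13 in C3H/HeJ (adjusted p = 0.001) and -1.05 ± 1.13 in A/J (adjusted p = 0.610), and without A/J control 4 the A/J value was 0.68. The change in WSB/EiJ exceeded that in A/J by 9.88 ± 1.60 (adjusted p = 1.04e-04). The difference C3H/HeJ minus A/J was 6.43 ± 1.60 (adjusted p = 0.0383), a call lost without any 1 of 11 of the 16 arrays (all but A/J control 2, 3 and 4, A/J deficient 3 and C3H/HeJ deficient 4, adjusted p up to 0.0897). No C3H/HeJ control array was above background there, which makes the C3H/HeJ rise at least 11-fold, and at A_30_P01028827, with no WSB/EiJ control array above background, the WSB/EiJ rise was at least 85.6-fold. The H19 probe of the gene set moved alike, by 5.77 and 8.17 in C3H/HeJ and WSB/EiJ and by 0.03 in A/J.

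The 5 NEAT1 probes rose together in WSB/EiJ livers, by 1.5 to 1.72. At A_30_P01021631 the WSB/EiJ control arrays read 2.83, 3.37, 3.64 and 3.15 and the deficient arrays 4.99, 4.69, 5.17 and 4.99, with no overlap, a change of 1.72 ± 0.20 (adjusted p = 4.22e-07). In A/J the control arrays were already at 5.15, 5.42, 5.05 and 5.04 and the deficient arrays at 5.46, 4.73, 5.22 and 4.81, which overlap (-0.11 ± 0.20, adjusted p = 0.782). The C3H/HeJ means were 4.47 and 5.08, and 3 of the 5 probes were called higher there (0.39 to 0.64 over the 5). On the control diet WSB/EiJ stood 1.92 ± 0.20 below A/J at this probe (adjusted p = 1.84e-07), and on the deficient diet the means of the strains were 5.06, 5.08 and 4.96. The change in WSB/EiJ exceeded that in A/J by 1.82 (adjusted p = 8.24e-05) and kept its call without each of the 16 arrays. Leaving out 1 C3H/HeJ array ended the C3H/HeJ call of A_30_P01021631 (without control 2 or 3 or deficient 1, 2 or 3, adjusted p = 0.0540 to 0.0764).

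The 3 NEAT2 probes, for Malat1, rose in WSB/EiJ by 0.83 to 1.02, 1 of them rose in C3H/HeJ and none was called in A/J (-0.23 to -0.19). At A_30_P01019221 the WSB/EiJ control arrays read -2.17, -1.63, -1.69 and -1.19 and the deficient arrays -0.60, -0.57, -0.86 and -0.57, without overlap. The C3H/HeJ call, of this same probe, was lost without control 1, 3 or 4 or deficient 2 or 4 (adjusted p up to 0.0992). The 5 TUG1 probes, for a widely expressed noncoding RNA, were called in no strain and ranged from -0.22 to 0.26, whereas with spike-in scaling all 5 were called higher in WSB/EiJ (1.02 to 1.20, adjusted p up to 2.77e-05) and 2 in C3H/HeJ (0.55 and 0.59). Of 3 Tug1 probes of the gene set, 1 was called, in WSB/EiJ (A_55_P2123716, 0.35, adjusted p = 0.0445). Both probes of NRON, an RNA named as a repressor of the transcription factor NFAT, fell in WSB/EiJ (-1.02 and -1.01) and 1 of them, A_30_P01025636, in C3H/HeJ (-0.85 ± 0.20, adjusted p = 0.00243), and with spike-in scaling these 3 calls were lost. The array names 2 probes KCNQ1ot1, after the imprinted antisense RNA of the Kcnq1 domain. Both lie on the plus strand, and whether they read that RNA was not tested. Of these, 1 was lower in C3H/HeJ (A_30_P01026203) and 1 in WSB/EiJ (A_30_P01026714), and both turned positive with spike-in scaling. The 2 Kcnq1ot1 probes of the gene set had positive values without a call, 0.56 and 0.28 in C3H/HeJ and 0.68 and 0.28 in WSB/EiJ. The first call was lost without C3H/HeJ control 2 or deficient 3, and the second without WSB/EiJ control 1, 2 or 4 or deficient 1 or 2.

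**Figure D2:**
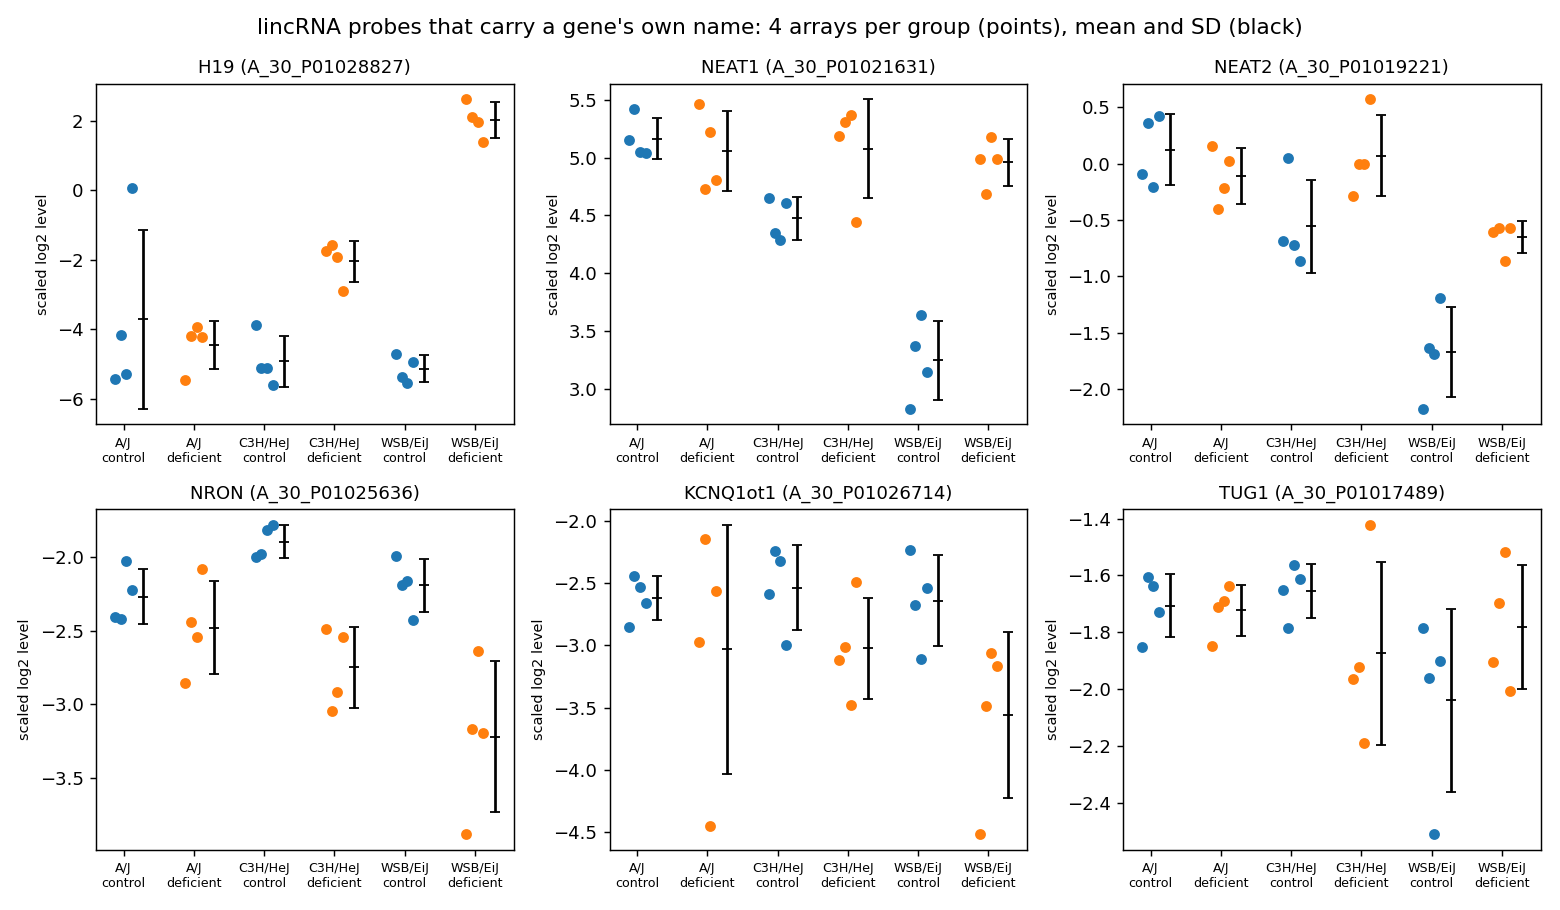
Scaled log2 level (log2 processed signal minus the array's 75th percentile) of the lincRNA probes that carry a gene's own name, in the 6 groups, 1 probe per name, with a point per array (4 per group) and the mean and SD in black. H19 is highest on the deficient WSB/EiJ arrays, with 1 A/J control array above the other A/J arrays, and NEAT1 is lowest on the WSB/EiJ control arrays.

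Of the 40 probes that rose in all strains, the largest rise in A/J belonged to A_30_P01020769, in the region chr19:5771425-5848475 on the strand opposite to Neat1. Its A/J control arrays read 2.95, 2.97, 3.53 and 2.88 and the deficient arrays 6.12, 5.78, 6.27 and 5.89. C3H/HeJ went from 4.62, 6.02, 5.07 and 4.37 to 6.90, 6.83, 7.35 and 7.39, and WSB/EiJ from 4.34, 4.45, 4.23 and 4.48 to 8.02, 7.14, 7.95 and 7.19. The groups were apart in each strain, with rises of 7.65-fold in A/J (2.94 ± 0.28, adjusted p = 1.83e-06), 4.28-fold in C3H/HeJ and 9.20-fold in WSB/EiJ. This was unlike the Neat1 probes on the other strand, which were not called in A/J, and the difference between the strands was not tested.

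Probes between 1 and 5 kb from the probes of Ifi207, a member of the interferon-inducible p200 family, also rose. A_30_P01030969 read -0.45, -0.55, -0.50 and -0.68 on the A/J control arrays and 1.84, 1.73, 1.95 and 1.54 on the deficient ones, and its changes were 2.31 ± 0.20 in A/J (adjusted p = 7.13e-07), 2.67 ± 0.20 in C3H/HeJ and 3.85 ± 0.20 in WSB/EiJ. The groups did not overlap in any strain. Probes of both design regions that overlap it on the same strand, which share 41 of their 60 bases and so are not independent, gave 3.36 ± 0.21 (A_30_P01021447) and 3.34 ± 0.21 (A_30_P01017895) in WSB/EiJ and 0.68 and 0.69 in A/J. The A/J call of A_30_P01017895 was lost without any 1 array but deficient 4 (adjusted p up to 0.144). The Ifi207 gene probe nearest to the last 2 changed by 0.93, 1.70 and 3.39.

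Among the probes that rose in all strains were some near a named noncoding gene. A_30_P01025039, 429 bp from a probe of Airn, the imprinted antisense RNA of the Igf2r locus, rose by 1.62 ± 0.29 in A/J (adjusted p = 0.00158), 1.87 ± 0.29 in C3H/HeJ and 2.99 ± 0.29 in WSB/EiJ, where the Airn probe changed by 1.49, 1.92 and 2.81. Its A/J arrays read -3.17, -3.81, -2.79 and -2.93 on the control and -1.52, -1.87, -0.80 and -2.01 on the deficient diet, with no overlap. A_30_P01019556, 25 bp from a probe of Snhg18, a small nucleolar RNA host gene, rose by 1.04 ± 0.29, 2.14 ± 0.29 and 1.98 ± 0.29, and the Snhg18 probe changed by 1.15, 1.84 and 2.16. The A/J call of A_30_P01019556 was lost without 1 array (any but control 4 and deficient 4, adjusted p up to 0.118). At A_30_P01030698 (chr11:16831925-16851121), with no A/J control array above background, the A/J rise was at least 2.95-fold.

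A graded rise from A/J to WSB/EiJ was seen at A_30_P01028287 (chr17:34018371-34019394), 505 bp from a probe of Kifc1, a motor protein of the mitotic spindle. The WSB/EiJ control arrays read -3.30, -2.80, -3.74 and -3.34 and the deficient arrays 0.08, 0.14, 0.31 and -0.38. The A/J arrays read -3.22, -2.62, -2.87 and -2.49 and then -2.27, -2.09, -2.16 and -2.56, which overlap. The changes were 0.53 ± 0.24 in A/J (adjusted p = 0.184), 2.13 ± 0.24 in C3H/HeJ and 3.33 ± 0.24 in WSB/EiJ, and the Kifc1 probe on the same strand changed by 0.66, 2.44 and 4.25. Whether A_30_P01028287 lies within the Kifc1 messenger RNA itself was not tested. Of 5 markers of dividing cells, 1, 5 and 5 rose in A/J, C3H/HeJ and WSB/EiJ, and their part in the rise of this probe was not tested. Probes of overlapping regions near the pseudogene 2700099C18Rik rose in C3H/HeJ and WSB/EiJ, with A_30_P01019123 at 0.25 ± 0.35, 2.01 ± 0.35 and 3.40 ± 0.35 and A_30_P01017632 at 0.46 ± 0.22, 1.86 ± 0.22 and 2.53 ± 0.22.

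Of the 129 probes that fell in all strains, some fell by a similar size in each. A_30_P01031578 (chr6:5311375-5328075) fell by 2.07 ± 0.32 in A/J (adjusted p = 6.20e-04), by 3.02 ± 0.32 in C3H/HeJ and by 2.35 ± 0.32 in WSB/EiJ. Its A/J control arrays read 1.60, 2.60, 1.75 and 2.49 and the deficient arrays -0.23, 0.20, -0.19 and 0.40, and no diet groups overlapped. A_30_P01029152 (chr8:74431707-74442440, 876 bp from a probe of the zinc finger gene Zfp882) fell by 1.34 ± 0.15, 1.51 ± 0.15 and 1.26 ± 0.15, with an adjusted p of 1.46e-05 in A/J, and with spike-in scaling the WSB/EiJ change was -0.31 and not called. A_30_P01030729 (chr9:30793551-30817648) fell by 1.52 ± 0.23, 2.26 ± 0.23 and 1.62 ± 0.23. By contrast A_30_P01018128 (chr19:36699712-36763966) fell by 1.59 ± 0.33 in A/J and 1.34 ± 0.33 in C3H/HeJ and by 5.28 ± 0.33 in WSB/EiJ, where the control arrays read 3.27, 4.28, 3.66 and 3.90 and the deficient arrays -1.90, -1.34, -1.19 and -1.59.

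Of the large falls in C3H/HeJ and WSB/EiJ, those of 6 probes shared 1 pattern across the arrays, which A_30_P01018128 did not. A_30_P01024647 (chr4:135896689-135918414) read 3.87, 3.86, 3.18 and 3.22 on the WSB/EiJ control arrays and -3.76, -3.48, -1.63 and -2.86 on the deficient ones. In C3H/HeJ it read 3.11, 3.73, 3.47 and 2.84 and then -0.92, -1.90, -0.12 and 1.23, with the deficient replicate 4 the highest. In A/J the groups overlapped, with 0.29, 0.07, 1.20 and 0.16 against -1.02, -0.12, -2.0 and 0.54. The changes were -6.46 ± 0.57 (adjusted p = 9.43e-09), -3.72 ± 0.57 and -1.08 ± 0.57 (adjusted p = 0.265) in WSB/EiJ, C3H/HeJ and A/J, and on the control diet C3H/HeJ and WSB/EiJ stood 2.86 ± 0.57 and 3.1 ± 0.57 above A/J.

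Probes on chromosomes 10, 13, 8, 15 and 7 had the same profile. Their WSB/EiJ changes were -5.80 (A_30_P01017959), -6.52 (A_30_P01025700), -6.37 (A_30_P01027172), -4.99 (A_30_P01032630) and -4.80 (A_30_P01022043), and their C3H/HeJ changes were -3.43, -3.28, -3.65, -3.22 and -3.14. Over the 24 arrays the levels of these 6 probes correlated with each other with r between 0.964 and 0.997 (15 pairs, arrays that share strain and diet groups and scaling). Their sequences were not alike: the longest run of bases that any 2 of them share on either strand was 9. At A_30_P01027172, with no WSB/EiJ deficient array above background, the fall was at least 37.4-fold.

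A like profile was found, after these values were seen, at some probes of the major urinary protein (Mup) genes, which encode abundant lipocalins secreted by male mouse liver. Of 15 tested Mup probes, 0, 14 and 15 fell in A/J, C3H/HeJ and WSB/EiJ. Their correlation with the mean of the 6 lincRNA probes over the 24 arrays ran from 0.508 to 0.984, and 7 of the 15 were above 0.95. The highest were the Mup5 probe, with changes of -0.80, -2.29 and -3.74, and a Mup21 probe, with -0.96, -2.09 and -3.88 in A/J, C3H/HeJ and WSB/EiJ. Mup5 had control-diet levels of 8.02, 9.64 and 9.45. The lowest were a Mup20 probe (A_55_P2063654, r = 0.508), with changes of 0.03, -0.74 and -0.94, and the Mup19 probe (r = 0.843), with -0.40, -0.51 and -1.49 and like control-diet levels in the 3 strains, 10.77, 10.79 and 10.93. Singly, the 6 lincRNA probes correlated with the Mup5 probe at r between 0.966 and 0.987 and with the Mup21 probe at r between 0.959 and 0.982 over the 24 arrays. None shared a run longer than 9 bases with a Mup probe on either strand. Only the Mup probes were compared and not whole Mup transcripts, so binding of Mup RNA by these 6 probes was not tested. Against the mean of the Mup5 and Mup21 probes, 165 of 4627 lincRNA probes and 1073 of 23534 other tested probes had an r above 0.9, and 23 and 147 an r above 0.95. Whether these 6 probes report RNA of their own regions was not tested.

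**Figure D3:**
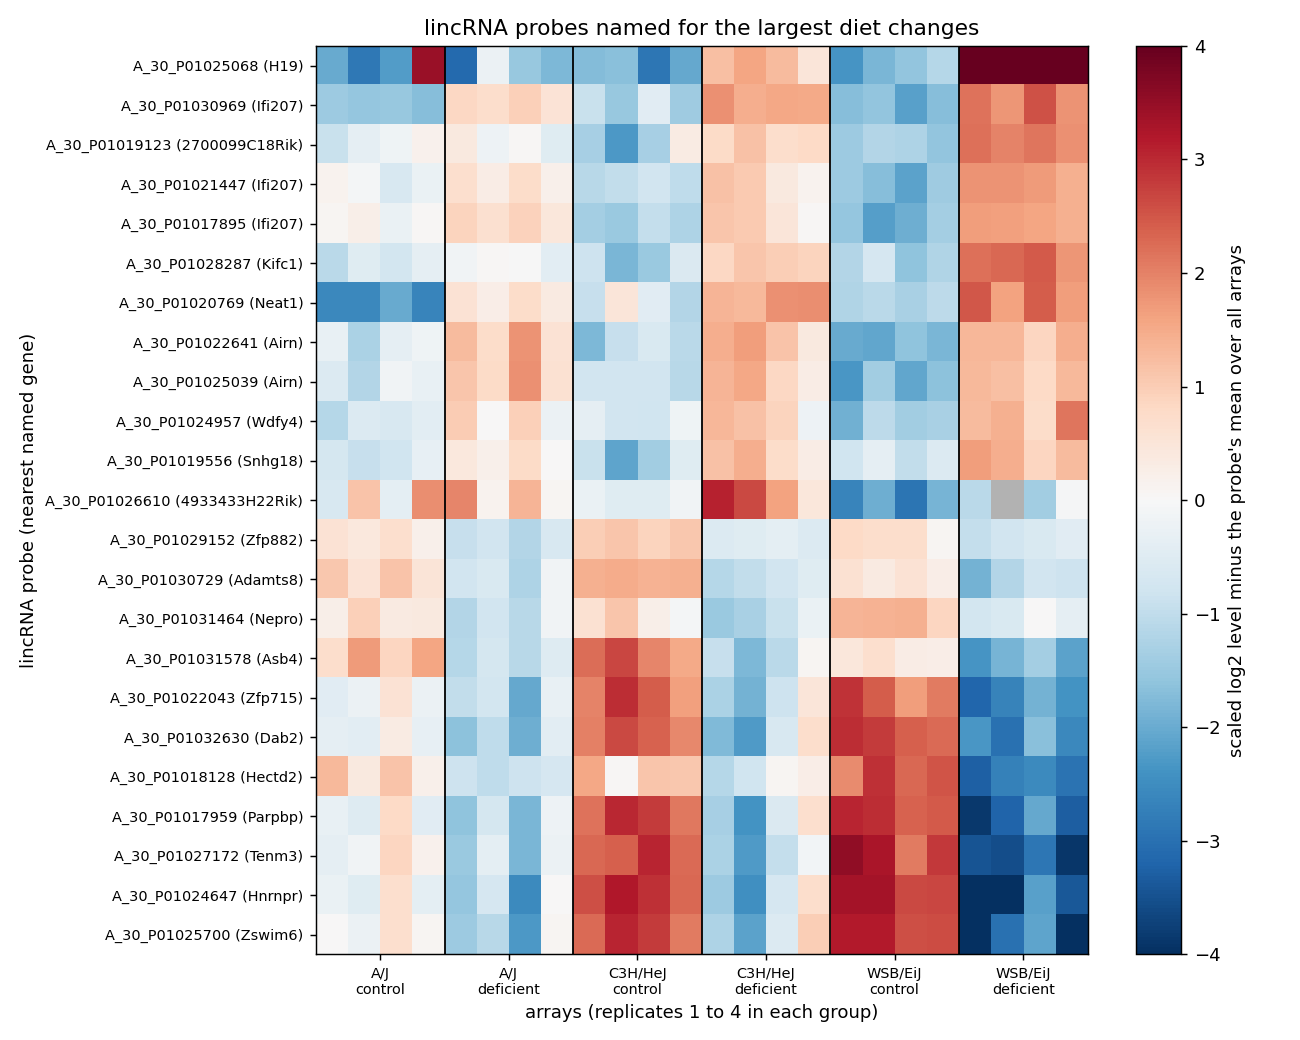
Scaled log2 level of the lincRNA probes named for the largest diet changes on each of the 24 arrays, minus the probe's mean over all arrays. Arrays are in columns by group (replicates 1 to 4) and probes in rows, by their WSB/EiJ change, with their nearest named gene. The falls near Hnrnpr, Parpbp, Zswim6, Tenm3, Dab2 and Zfp715 share 1 profile that is high on the C3H/HeJ and WSB/EiJ control arrays and lowest on the WSB/EiJ deficient arrays. The row near Hectd2 (A_30_P01018128), which did not share it, lies among them.

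Some lincRNA probes were above background on all 4 arrays of 1 diet and on none of the other. The choice of probes favours this, so the counts are a description. The other probes tested were not counted in this way, so the counts show nothing particular to lincRNA probes. In A/J 11 lincRNA probes were on with the deficient diet only, 3 of them called. In C3H/HeJ 48 were on (36 called) and 4 were off (4 called), and in WSB/EiJ 153 were on (123 called) and 25 off (25 called). Besides H19, A_30_P01025511 (chr4:149445201-149445902) was on in both strains: its C3H/HeJ arrays went from -5.07, -5.65, -5.04 and -4.75 to -0.90, -0.59, -1.03 and -2.84 and its WSB/EiJ arrays from -4.24, -5.08, -4.51 and -5.90 to -0.20, -0.04, -0.41 and -0.05. The rise was at least 7.31-fold in C3H/HeJ (adjusted p = 4.54e-05) and at least 17.2-fold in WSB/EiJ (adjusted p = 4.31e-07). A_30_P01028486 (chr3:84610558-84611133) went off in C3H/HeJ, a fall of at least 5.62-fold. In A/J, A_30_P01031796 (chr6:35201798-35217831) came on, at least 1.74-fold (adjusted p = 0.0474), a call lost without any 1 of 7 arrays (all but control 1), and A_30_P01027646 was not called (adjusted p = 0.145).

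The diet effects of the strains were compared directly. The difference WSB/EiJ minus A/J was called for 1800 lincRNA probes, 38.9% where 44.8% of all probes were called, and 1518 of them were lower (32% of all probes were). WSB/EiJ minus C3H/HeJ was called for 632, 13.7% against 21.1% (146 higher and 486 lower, with 6.91% and 14.1% of all probes), and C3H/HeJ minus A/J for 56, 1.21% against 2.09% (27 higher and 29 lower, with 1.27% and 0.813% of all probes). With spike-in scaling 607 and 233, 242 and 61, and 16 and 10 were higher and lower in these comparisons.

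These counts and that of A/J moved with single arrays. The 229 calls in A/J became 68 to 140 without control 1, 2 or 3 or deficient 1, 2 or 3, 431 without deficient 4, and 541 without control 4 and deficient 4 together. C3H/HeJ minus A/J became 24 to 37 without A/J control 1, 2 or 4, A/J deficient 2 or 4, C3H/HeJ control 2 or C3H/HeJ deficient 1 or 2, and 198 without C3H/HeJ deficient 4. WSB/EiJ minus C3H/HeJ became 968 without WSB/EiJ deficient 3.

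Few probes moved in opposite directions. At A_30_P01018486 (chr1:59449275-59474025) the WSB/EiJ arrays rose from -2.42, -2.23, -2.59 and -2.28 to -1.45, -0.90, -0.59 and -1.0 (1.40 ± 0.34, adjusted p = 0.00122), while the values in A/J (-1.17 ± 0.34, adjusted p = 0.0419) and C3H/HeJ (-0.92 ± 0.34, adjusted p = 0.0373) were negative. The difference WSB/EiJ minus C3H/HeJ was 2.31 ± 0.49 (adjusted p = 0.00261). Its A/J call was lost without any 1 array but control 2 and deficient 4, and its C3H/HeJ call without control 1, 3 or 4 or deficient 1 or 2, and both were lost with spike-in scaling. A_30_P01028418 (chr16:86770170-86874921) rose in WSB/EiJ (1.12 ± 0.24) and stood at -0.64 ± 0.24 in C3H/HeJ (adjusted p = 0.0368, lost without control 1, 2 or 3 or deficient 1 or 2 and with spike-in scaling), a difference of 1.76 ± 0.34. A_30_P01030988 (chr16:90103524-90104408) fell in C3H/HeJ by 3.00 ± 0.49 and was at 0.43 ± 0.49 in A/J, a difference of -3.43 ± 0.69 (adjusted p = 0.0118). In both C3H/HeJ and WSB/EiJ 201 of the 4627 lincRNA probes rose, 1273 fell and 19 were called in opposite directions. Of the 23534 other probes, 2919 rose in both, 6049 fell and 183 were called in opposite directions.

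On the control diet the strains already differed at many lincRNA probes, though at a smaller share of them than of all probes. WSB/EiJ against A/J was called for 1606, 34.7% against 42.4% of all probes. Of these 955 were higher and 651 lower (20.6% and 14.1%, against 24.6% and 17.8% of all probes). WSB/EiJ against C3H/HeJ was called for 1385, 29.9% against 37.4%, with 704 higher and 681 lower (15.2% and 14.7%, against 19.7% and 17.8%). C3H/HeJ against A/J was called for 665, 14.4% against 20.7%, with 416 higher and 249 lower (8.99% and 5.38%, against 11.9% and 8.77%). With spike-in scaling 36.9%, 32.7% and 57.8% of calls were higher, against 59.5%, 50.8% and 62.6%. Strains differ in DNA sequence, and the effect of a base difference within a probe cannot be told apart from a difference in RNA.

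A_30_P01029235 (chr7:4827340-4863315, near Isoc2a) read 4.16, 4.00, 4.02 and 3.92 in WSB/EiJ and -1.94, -2.10, -1.86 and -1.78 in A/J livers, a difference of 5.95 ± 0.18 (adjusted p = 9.99e-16). C3H/HeJ was at -2.42, -2.09, -2.15 and -1.74, close to A/J. A_30_P01023903, in an overlapping region, differed by 5.0 ± 0.20. At A_30_P01027230 (chr12:55844075-55898175) WSB/EiJ stood 4.82 ± 0.13 above A/J, and at A_30_P01029540 (chr1:134171292-134176062) 4.69 ± 0.29. Lower in WSB/EiJ, A_30_P01028919 (chr6:129151512-129208737) was at -2.72, -3.24, -2.57 and -3.14 in WSB/EiJ against 1.29, 1.59, 1.35 and 0.67 in A/J (-4.14 ± 0.19). C3H/HeJ stood apart at A_30_P01019507 (chr11:97457180-97487074), with 3.41, 4.10, 3.68 and 3.91 against -1.72, -1.04, -1.56 and -1.22 in A/J (5.16 ± 0.27, adjusted p = 7.87e-12) and -0.27, -0.27, -0.29 and -0.46 in WSB/EiJ. A_30_P01030657 (chr17:22335458-22466521) was 3.77 ± 0.14 higher in C3H/HeJ and 2.94 ± 0.14 higher in WSB/EiJ than in A/J. At A_30_P01019507, A_30_P01030657 and A_30_P01029540 the diet was not called in A/J or C3H/HeJ (C3H/HeJ changes of -0.17 ± 0.27, -0.16 ± 0.14 and -0.46 ± 0.29). In WSB/EiJ the first fell by 1.21 ± 0.27 (adjusted p = 4.44e-04), and the other two were not called (0.22 ± 0.14 and -0.34 ± 0.29).

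Of the 6 lincRNA probes with the highest mean level, 5 shared a profile. For these 5, on chromosomes 14, 6, 12 and 17, the change was not called in A/J and C3H/HeJ and lay between -1.13 and -1.05 in WSB/EiJ, as at A_30_P01031448 (chr14:78924115-78938125), which read 10.61, 10.74, 10.79 and 10.90 on the control and 9.48, 9.58, 9.98 and 9.58 on the deficient diet (-1.10 ± 0.18, adjusted p = 2.53e-05). With spike-in scaling its WSB/EiJ change was -0.16 and not called. These 5 correlated with each other over the 24 arrays at r between 0.954 and 0.993, and whether they report RNA of their own regions was not tested. The other probe, A_30_P01027122 (chr1:193875525-193978800), differed by strain on the control diet, 1.97 ± 0.15 higher in C3H/HeJ and 2.57 ± 0.15 higher in WSB/EiJ than in A/J, and fell by 0.95 ± 0.15 in C3H/HeJ and 2.29 ± 0.15 in WSB/EiJ.

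Probes of 1 region mostly changed alike. In the 1131 regions with at least 2 probes, the median SD of the changes within a region was 0.16, 0.22 and 0.26 in A/J, C3H/HeJ and WSB/EiJ, against an SD over all lincRNA probes of 0.38, 0.65 and 1.02. Some regions held called probes of both directions, 0 in A/J, 21 in C3H/HeJ and 62 in WSB/EiJ. Regions with probes on both strands gave a different picture. Over 427 such loci the changes, taken as 1 value per strand, correlated at r = 0.15, 0.055 and 0.056. In A/J, C3H/HeJ and WSB/EiJ alike, the values of both strands still had the same sign at most of these loci. This is a description over loci that share arrays.

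On the same strand, lincRNA probes near a gene followed it more closely than distant ones. Among 214 lincRNA probes within 1 kb of a probe of a protein-coding gene on the same strand (74 genes), the changes correlated with those of the gene at r = 0.75 in A/J, 0.79 in C3H/HeJ and 0.79 in WSB/EiJ. For 91 probes within 1 kb on the opposite strand (43 genes), r was 0.42, 0.30 and 0.25. Beyond 1 kb and up to 5 kb on the same strand (294 probes, 114 genes) r was 0.38, 0.45 and 0.54, and beyond 5 kb and up to 20 kb (531 probes) 0.038, 0.015 and 0.14. On the opposite strand r did not fall steadily with distance: between 1 and 5 kb (171 probes, 89 genes) it was 0.21, 0.37 and 0.29, and between 5 and 20 kb (475 probes) 0.11, 0.063 and 0.11. Several probes share a gene, and all share the arrays, so these values describe the probes and carry no test. Whether lincRNA probes near a gene on its strand lie within that gene's own messenger RNA was not tested. In the same-strand class within 1 kb, 11.7% were called in A/J, 41.1% in C3H/HeJ and 67.3% in WSB/EiJ, where 4.95%, 36.4% and 68.4% of all lincRNA probes were.

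**Figure D4:**
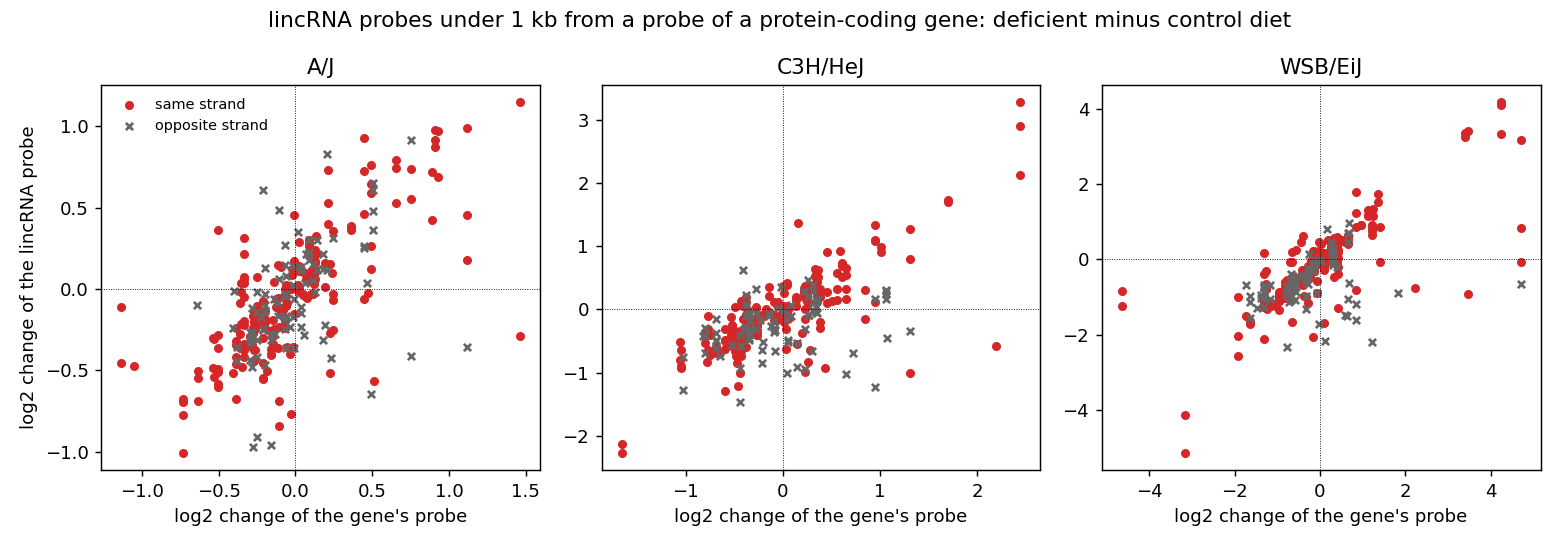
Log2 change, deficient minus control diet, of lincRNA probes (vertical axis) against that of the protein-coding gene whose probe lies under 1 kb away (horizontal axis), by strand, in the 3 strains. Points on the same strand (214) follow the diagonal, with r = 0.75, 0.79 and 0.79, and those on the opposite strand (91) scatter more.

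By mean level, the lincRNA median lay below that of the other probes in each of 7 classes. In the 6 brighter classes the difference was between -0.13 and -0.09 in A/J, between -0.29 and -0.10 in C3H/HeJ and between -0.55 and -0.26 in WSB/EiJ. In the dimmest it was -0.07, -0.48 and -1.06, and there the other probes had medians of 0.06, 0.29 and 0.65. Dim probes passed the background mark through the groups where they were high, so this class is a description. No chromosome's median was above 0 in any strain: in WSB/EiJ the medians ran from -0.78 on chromosome 7 to -0.46 on chromosome 1, and the lower calls from 45.7% on chromosome 1 to 67.2% on chromosome 5. These medians hold for the percentile scaling and are relative to it.

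**Figure D5:**
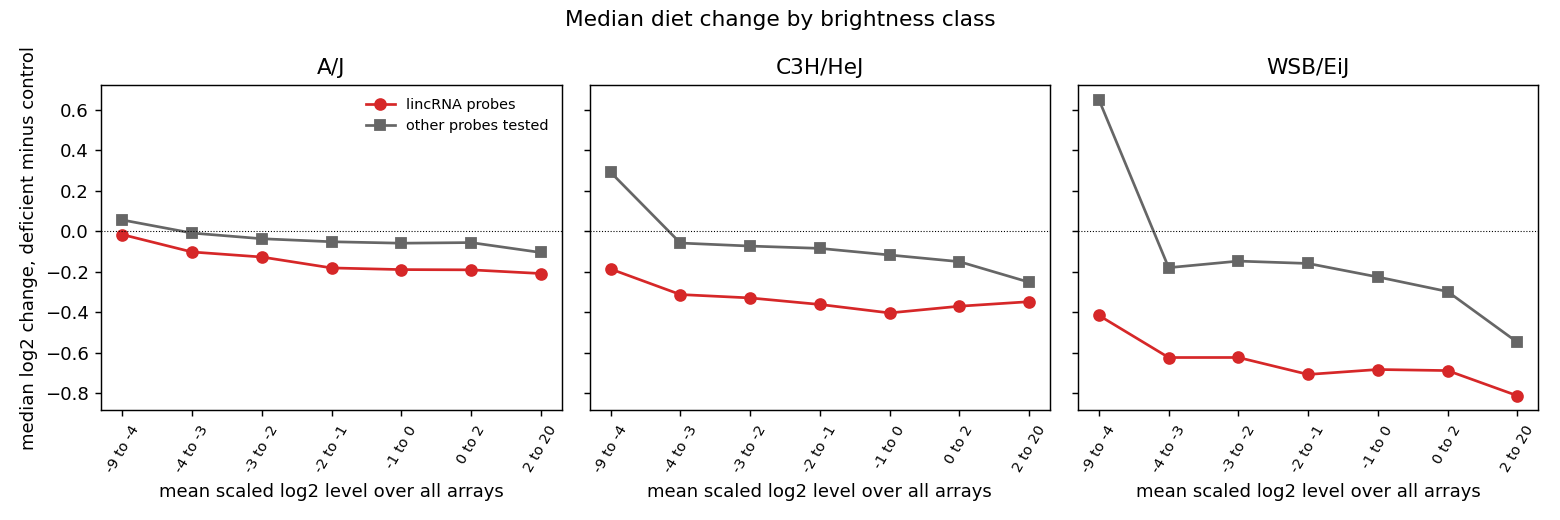
Median log2 change, deficient minus control diet, of the lincRNA and the other tested probes in 7 classes of mean scaled level, in each strain. The lincRNA median lies below that of the other probes in each of the 7 classes, with WSB/EiJ differences from -0.55 to -0.26 in the 6 brighter ones and -1.06 in the dimmest, where the medians of the other probes are above 0.

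Markers of several cell types moved in the same comparisons. Of 10 hepatocyte markers, 1, 8 and 10 fell in A/J, C3H/HeJ and WSB/EiJ, and the log2 of their summed level went from 12.7 to 12.8 on WSB/EiJ control arrays to between 11.6 and 11.9 on deficient ones. Of 8 macrophage and monocyte markers, 4, 6 and 6 rose, with a WSB/EiJ range of 4.61 to 4.73 on the control and 7.16 to 7.32 on the deficient diet, and of 9 stellate cell and matrix markers 2, 6 and 8 rose, with a WSB/EiJ range of 3.30 to 3.74 and then 6.64 to 7.65. Of 4 erythroid markers tested 1, 4 and 4 fell, and of 5 biliary markers 0, 2 and 5 rose. Of 5 endothelial markers 1, 2 and 1 rose and 0, 0 and 3 fell, and of 5 lymphocyte markers tested 0, 1 and 1 rose and 1, 1 and 2 fell. Of 8 markers of pancreas acinar cells tested, none was called in A/J and C3H/HeJ, and in WSB/EiJ 3 rose (Try4 by 4.44 ± 1.45, Cpa1 by 4.22 ± 1.37 and Prss2 by 3.74 ± 1.26) and Amy2a5 fell by 0.62 ± 0.20. Their summed level ran from 3.78 to 4.33 on the WSB/EiJ control and from 3.19 to 5.40 on the deficient arrays, which overlap. The 1 adipose marker tested was not called. The part of these cell types in the rises and falls of the lincRNA probes was not tested. Among 27 tested genes of a list of 48 named noncoding RNAs, which were measured by probes outside the lincRNA set, 1, 4 and 7 rose and 2, 7 and 6 fell, with medians of -0.06, -0.10 and -0.15.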

How the data were processed

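Liver RNA was labelled with Cy3 and hybridised to 1-colour Agilent arrays. Per the file headers, the authors made the processed intensity of each spot with Agilent Feature Extraction 10.7, together with a mark of 0 or 1 on each spot for being well above background, saturated or an outlier. A deposited table of normalized intensity by the authors was a constant multiple, array by array, of the processed intensity (log2 ratios within an array ranged by 3.22e-07), and 0 of its columns lacked a sample.

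Outlier spots were left out (3332 over all arrays, 33 values of the lincRNA probes), replicate spots averaged, and log2 intensity taken minus each array's 75th percentile over the gene spots. Probes above background on all 4 arrays of a group were tested (28161). One model with 6 group means was fitted to 24 arrays with limma 3.58.1 in R 4.3.3 (with GenomicRanges 1.54.1), 2-sided, with Benjamini-Hochberg adjustment over all probes tested and a threshold of 0.05. The scripts were tested on simulated data. The number of arrays limits precision. No mm9 genome was used, so positions are those of the array files. Gene names came from RefSeq accessions (26762 probes) and symbols (3814). Distances are between probes.

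The probes and lists were chosen with earlier results of these data known. Named probes are 1 per region: in each diet comparison the 5 largest rises and 5 largest falls that were called, above background on at least 3 arrays per group and not overlapping; up to 6 called alike in all strains; the 3 largest differences each way between diet effects and between strains on the control diet; up to 3 per strain on in 1 diet only, by the bound; the 6 with the highest mean level. Probes that carry the name of a known RNA are given besides. For a bound on a fold, a dim array counts with its own signal or, if larger, the weakest signal of any probe above background there. Leaving out A/J control 4 and deficient 4 together, values within each slide and the comparison with Mup probes were chosen after the data were seen. Alternatives were other scalings, background correction (normexp, offset 50, followed by quantile normalization) and filters, blocks, weights and thresholds, the deposited table and each array left out.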

Additional observations from a re-analysis of the deposited data

Results flagged for a closer look

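Within groups of 4 arrays, 1 of 78 groups examined had a single array far from the rest, where chance flags about 1 in 20 groups: the highest A/J control array of A_30_P01020769, on the strand opposite to Neat1, stood at 3.53 and the others between 2.88 and 2.97.

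The diet effect differed between strains by a test of the difference itself for 56 lincRNA probes in C3H/HeJ against A/J, 1800 in WSB/EiJ against A/J and 632 in WSB/EiJ against C3H/HeJ. Of the named probes, C3H/HeJ minus A/J was 1.60 at A_30_P01028287 and at A_30_P01026240, 1.40 at A_30_P01017632, -3.43 at A_30_P01030988, -2.53 at A_30_P01027172 and -2.19 at A_30_P01017875. The calls of A_30_P01027172 and A_30_P01017632 were lost without any 1 of 8 and of 2 of the 16 arrays. WSB/EiJ minus A/J was 3.16 at A_30_P01019123, 2.80 at A_30_P01028287, 2.68 at A_30_P01021447, -5.39 at A_30_P01024647, -4.83 at A_30_P01017959 and -3.93 at A_30_P01032630. WSB/EiJ minus C3H/HeJ was 2.62 at A_30_P01021461, 2.31 at A_30_P01018486, 1.76 at A_30_P01028418, -3.94 at A_30_P01018128, -2.75 at A_30_P01024647 and -2.37 at A_30_P01017959. The last 2 calls were lost without 1 array, C3H/HeJ deficient 4 for A_30_P01024647 and C3H/HeJ deficient 3 or 4 or WSB/EiJ deficient 1 for A_30_P01017959.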

How the results depend on the processing

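Counts of called lincRNA probes are given in the order A/J, C3H/HeJ and WSB/EiJ for diet, then C3H/HeJ minus A/J, WSB/EiJ minus A/J and WSB/EiJ minus C3H/HeJ for the differences of diet effects, and then C3H/HeJ against A/J, WSB/EiJ against A/J and WSB/EiJ against C3H/HeJ for the control diet. With each array left out in turn they ranged from 68 to 431, 1150 to 1842, 2903 to 3201, 24 to 198, 1408 to 2110, 433 to 968, 538 to 619, 1404 to 1514 and 1228 to 1308. With spike-in scaling the diet counts were 358, 1095 and 2088 and the differences 26, 840 and 303. With 1 probe per region and per gene the counts were 130, 996, 1755, 34, 1058, 343, 322, 788 and 681, where fewer probes were tested. With a log2 change of at least 1 they were 58, 487 and 1531 for diet, 950 and 339 for WSB/EiJ minus A/J and minus C3H/HeJ, and 300, 781 and 638 for the control diet. An adjusted p of 0.01 left 46 and 918 in A/J and C3H/HeJ, 9, 945 and 201 differences and 394 for C3H/HeJ against A/J. With probes above background on all arrays alone, 2073 were called in WSB/EiJ, 30 for C3H/HeJ minus A/J and 373, 975 and 838 on the control diet.

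The A/J count was 80 with no background filter, 408 with slide as a fixed block, 645 with array weights, 70 with only its own groups fitted, 976 with 1 array fewer in each group and 541 without control 4 and deficient 4. C3H/HeJ minus A/J was 89 with normexp correction and quantile normalization, 19 with no background filter, 131 with array weights and 19 with only the compared groups. WSB/EiJ minus C3H/HeJ was 334 with no filter, 1158 with array weights and 990 with 1 array fewer. The share of higher calls for WSB/EiJ minus C3H/HeJ was 37.0% with normexp correction and quantile normalization against 23.1%, and for C3H/HeJ minus A/J 30.3% against 48.2%. The cause was not tested. The replicate numbers did not pair the arrays (0 of 12 correlations of same-numbered arrays over 0.1, from -0.23 to 0.051), and with the replicate block 183, 1595, 3119, 40, 1694, 561, 625, 1566 and 1344 were called.

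Of the values of named probes under an alternative, 3952 kept a call in its direction or stayed without a call, whichever their direction. A further 125 lost the call and 28 gained it. Another 4 turned, with a call before or after: A_30_P01026203 to 0.15 in C3H/HeJ and 0.72 in WSB/EiJ and A_30_P01026714 to 0.031 in WSB/EiJ with spike-in scaling, and A_30_P01019221 to -0.057 in C3H/HeJ within slide 3. Values within a slide carry no call, so for called probes only their direction was compared. Values that turned without a call before or after are among the 3952, as at A_30_P01021588 in A/J. Signals near background limit the values of dim probes.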
